A study of Mus musculus with 9 samples.

Results

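The canonical Wnt pathway was described here by 10 genes in primary mouse microglia: the co-receptor gene Lrp6, the destruction complex genes Axin1, Axin2, Apc and Gsk3b, the beta-catenin gene Ctnnb1, the transcription factor genes Tcf7l2 and Lef1, and the target genes Ccnd1 and Myc. These genes were chosen by name, and the counts of all Ensembl transcripts of each gene were summed in every library. All 10 were among the 16272 genes that passed a filter on low counts, out of 54119 genes listed, and 87 transcripts were listed for them. The data were RNA-seq of 9 libraries of total RNA, 3 each from microglia treated with control siRNA, Chd8 siRNA or Tsc2 siRNA. All cells came from C57BL/6J mice and were shaken off mixed glial cultures of embryonic brains, and all groups received an siRNA with a lipid reagent. The methods give 3 days of siRNA treatment before RNA isolation. The results section of the study describes these microglia as stimulated with LPS, a bacterial cell wall component. The methods list the experiments without LPS, and RNA-seq is not among them. The paragraph on RNA-seq in the methods and the sample labels name no LPS. Chd8 encodes a chromatin remodeller that is known to bind beta-catenin, and Tsc2 encodes a subunit of the complex that restrains mTORC1 signalling. An siRNA lowers an mRNA in part, so that neither group is a knockout. The comparisons asked whether the mRNA of these Wnt pathway genes differed between microglia with and without each knockdown.

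When no Wnt ligand is bound, beta-catenin is held by the scaffold proteins Axin and Apc, is phosphorylated by the kinase Gsk3b and is degraded. A Wnt ligand that engages a Frizzled receptor with Lrp5 or Lrp6 stops this degradation, and beta-catenin then enters the nucleus, binds the TCF/LEF factors and activates their target genes. Axin2, Lef1, Ccnd1 and Myc are known targets in many cell types, and Axin2 is at the same time an inhibitor that feeds back on the pathway. Much of this regulation acts on protein stability, which mRNA levels do not measure. In microglia, the beta-catenin pathway is known for roles in activation and survival.

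The promoters of the members with the lowest mRNA levels, Axin2 and Lef1, and of the kinase gene Gsk3b are shown because they hold or lack the core of the TCF/LEF motif, CTTTGA or its reverse complement TCAAAG. RefSeq promoters on GRCm38.p6, from 250 bases before to 50 bases after a transcription start, were at hand for 5 of the 10 members, and these 5 members had 10 promoters. The core was searched on both strands and was present in 2 of these 10 promoters, beside 16.0% of all 32851 promoters of this length. All promoters below lie on the plus strand and run 5′ to 3′, with each match to the core in capitals.
Axin2, chr11:108920099-108920398: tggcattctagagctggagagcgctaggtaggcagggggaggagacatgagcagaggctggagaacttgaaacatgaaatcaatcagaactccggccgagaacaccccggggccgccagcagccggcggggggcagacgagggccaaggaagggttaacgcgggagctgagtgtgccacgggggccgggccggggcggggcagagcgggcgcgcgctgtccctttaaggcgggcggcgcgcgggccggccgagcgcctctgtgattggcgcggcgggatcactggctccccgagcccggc
Gsk3b, chr16:38088751-38089050: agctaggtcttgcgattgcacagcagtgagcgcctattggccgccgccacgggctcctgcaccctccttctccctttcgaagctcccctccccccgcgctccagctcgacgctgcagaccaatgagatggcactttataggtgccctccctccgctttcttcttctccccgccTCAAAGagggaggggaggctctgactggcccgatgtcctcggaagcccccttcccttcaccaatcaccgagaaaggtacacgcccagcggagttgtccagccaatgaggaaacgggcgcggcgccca
Lef1, chr3:131112541-131112840: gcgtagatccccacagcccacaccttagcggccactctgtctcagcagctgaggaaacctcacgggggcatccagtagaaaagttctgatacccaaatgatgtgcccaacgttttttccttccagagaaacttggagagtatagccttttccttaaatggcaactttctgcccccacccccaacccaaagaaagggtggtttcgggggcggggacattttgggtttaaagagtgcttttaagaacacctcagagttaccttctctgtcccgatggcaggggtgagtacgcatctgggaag
Lef1, chr3:131156044-131156343: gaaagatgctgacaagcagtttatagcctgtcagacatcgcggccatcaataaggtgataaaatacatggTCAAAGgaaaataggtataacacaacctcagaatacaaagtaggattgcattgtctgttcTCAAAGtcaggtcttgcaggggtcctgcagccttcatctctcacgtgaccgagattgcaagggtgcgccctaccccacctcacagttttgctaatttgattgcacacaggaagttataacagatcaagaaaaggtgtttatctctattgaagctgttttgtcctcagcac
The Axin2 promoter held no match. In the Gsk3b promoter the match began 77 bases before the start site. The first of the Lef1 promoters shown, whose start site lay 15 bases from the start of the Lef1 transcript with most of the counts, held no match, and the second, at an internal start of Lef1, held matches 180 and 120 bases before its start. A match is a run of letters and no evidence of binding, and no match says only that these letters are not in this window. The promoters of Ctnnb1 and Tcf7l2 held no match. The Lef1 promoters not shown, with start sites at chr3:131110297 and chr3:131110323, held none either.

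Total counts per library ranged from 16913034 to 33213497, and 3 counts, taken as the limit of detection, were 0.0903 to 0.177 CPM, counts scaled to a common library size. These limits cover counting error only. Levels are given below as normalized CPM, in which library sizes were adjusted by edgeR's TMM factors. The siRNA targets were the check of the labels. Control siRNA libraries 1 to 3 gave 118, 97.5 and 93.6 normalized CPM of Chd8 and Chd8 siRNA libraries gave 86.8, 44.6 and 38.2, so that the groups did not overlap. Control siRNA gave 40.8, 39.9 and 38.9 normalized CPM of Tsc2 and Tsc2 siRNA gave 24.5, 30.6 and 36.5, which did not overlap either. Within each knockdown group 1 library lay near its lowest control, that is Chd8 siRNA 1 and Tsc2 siRNA 3, and the log2 ratios at replicate numbers 1 to 3 were −0.44, −1.12 and −1.28 for Chd8 and −0.72, −0.38 and −0.091 for Tsc2. The log2 fold change of Tsc2 was −0.38 ± 0.15 (SE) without and −0.39 ± 0.12 with the replicate block described below, under the 1.5-fold threshold for a call, and edgeR's adjusted p was 1.00 and 0.220, so that Tsc2 was not called. When single libraries were left out, it ranged from −0.53 to −0.25 without the block, with the value nearest 0 without Tsc2 siRNA 1, and that of Chd8 with Chd8 siRNA ranged from −1.32 to −0.64, with the value farthest from 0 without Chd8 siRNA 1. The microglial gene Csf1r was abundant in every library, at 405 to 572 normalized CPM. Tmem119 and P2ry12, which mark microglia in the adult brain, were at 0 to 1.11 and 0.686 to 2.78 normalized CPM. Libraries with the same replicate number varied together, so a fit with the replicate number as a block is given beside the fit without it. The 8 astrocyte markers summed to 57.1 to 109 normalized CPM in the libraries of replicate number 3 and to 12.8 to 29.7 in the others. The 5 endothelial markers summed to 46.2 to 61.2 normalized CPM, led by Kdr at 33.4 to 52.2, with Pecam1 at 4.57 to 10.1, Cdh5 at 1.46 to 4.48, Cldn5 at 0 to 0.0638 and Tek at 0 in all 9 libraries.

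Per transcript length, in TPM computed from annotated lengths, Ctnnb1 was the most abundant of the 10 genes, at 40.1 ± 6.37 TPM (SD, n = 9 libraries), above Ccnd1 in 9 of 9 libraries. Ccnd1, at 16.7 ± 4.10 TPM, was above Axin1 in 9 of 9 libraries, and Axin1, at 9.71 ± 1.89, was above Tcf7l2 in 8. The middle of the order was less clear. Tcf7l2 at 7.41 ± 1.31, Apc at 6.27 ± 1.45 and Gsk3b at 5.97 ± 1.46 TPM lay within their spread, since each was above the next in 6 libraries. Myc followed at 4.12 ± 0.899 and Lrp6 at 1.77 ± 0.220 TPM, and Myc was above Lrp6 in 9 of 9 libraries. Lef1 and Axin2 were far below, at 0.214 ± 0.0852 and 0.133 ± 0.124 TPM, and Lef1 was above Axin2 in 6 libraries. Among all genes tested, Ctnnb1 stood at the 94.6th percentile of this level and Axin2 at the 12.3rd.

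**Figure D1:**
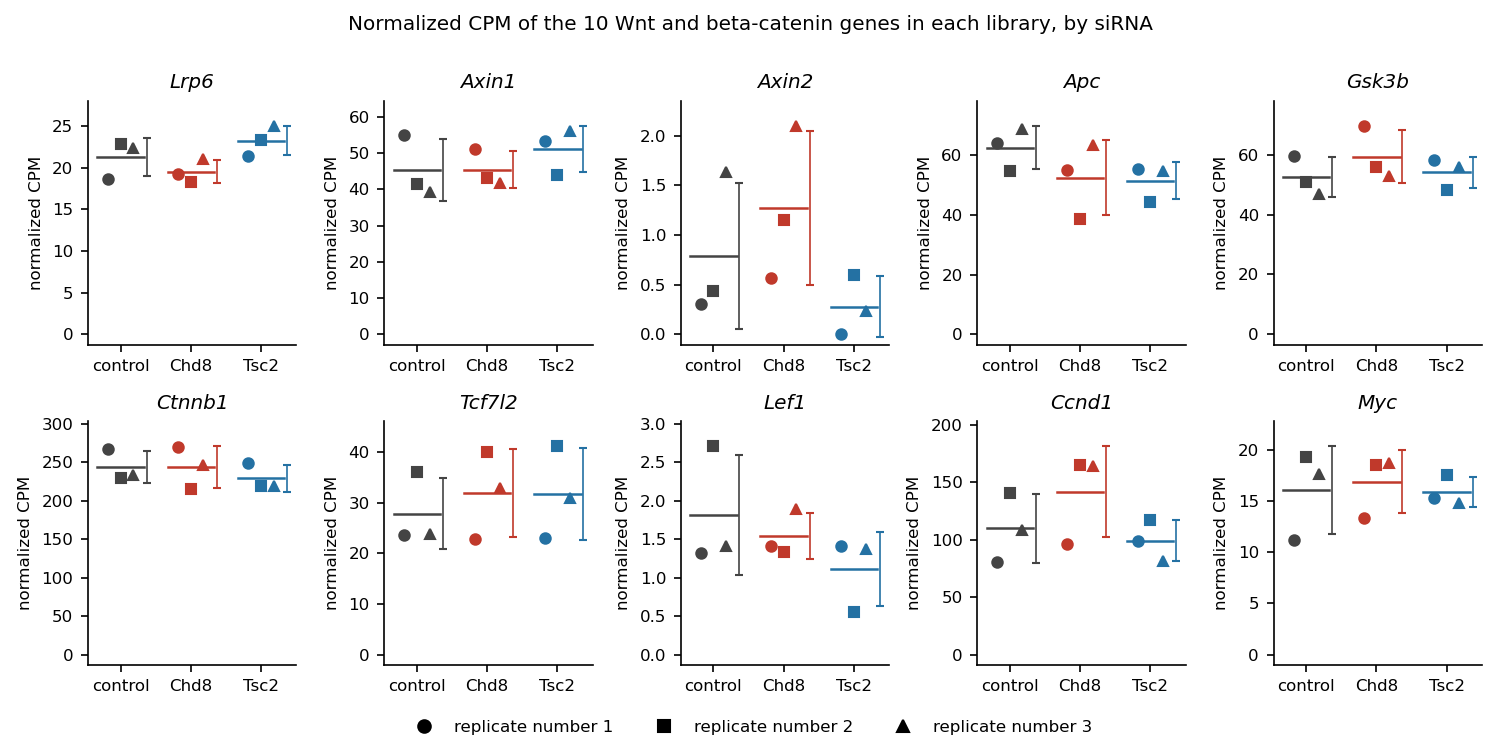
Normalized CPM of each of the 10 genes (y axis, from 0) in the 9 libraries, grouped by siRNA (x axis); marker shapes give the replicate number, horizontal lines the group means and error bars 1 SD (n = 3). For every gene the libraries of the control siRNA group overlap those of both knockdown groups, and in Tcf7l2 replicate number 2 is highest and number 1 lowest in all 3 groups.

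None of the 10 genes was called in any of the 3 comparisons. A call needed an FDR under 0.05 and at least a 1.5-fold difference in edgeR's quasi-likelihood test with all 9 libraries in one fit. In this test 0% of all genes tested were called with Chd8 siRNA against control siRNA, 0% with Tsc2 siRNA against control siRNA and 0% with Chd8 siRNA against Tsc2 siRNA, and 620, 420 and 503 genes had an unadjusted p under 0.05. With the replicate block, edgeR called 0.529%, 0.387% and 0.221% of all genes in these comparisons, that is 86, 63 and 36 genes, and again 0 of the 10 Wnt genes. The adjusted p of every member was 1.00 without the block in edgeR's test. With the block, an unadjusted p under 0.05 was found for 2 of 10 members with Chd8 siRNA against control siRNA (Apc and Ccnd1) beside 12.8% of all genes, for 1 with Tsc2 siRNA against control siRNA (Apc) beside 10.7%, and for 2 between the knockdowns (Axin2 and Ccnd1) beside 10.7%. With the block, the lowest adjusted p of a member in edgeR's test was 0.251 (Chd8 siRNA) and 0.301 (Tsc2 siRNA) in the comparisons with control. Of the 10 members, 0 had levels that did not overlap between Chd8 siRNA and control siRNA, beside 9.05% of all genes, and 0 between Tsc2 siRNA and control siRNA, beside 8.13%. Both comparisons used the same control libraries. In bulk RNA, fewer cells that express a gene and less of its RNA per cell cannot be told apart. Nothing in the labels says that the 3 libraries of a group are more than technical repeats, whereas the methods describe biological replicates as cultures of distinct brains. If they were technical, the p-values would measure only the spread between these libraries.

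Lrp6, the co-receptor that recruits Axin to the membrane once Wnt is bound, lies at chr6:134446476-134566965 (GRCm38, minus strand). Control siRNA libraries 1 to 3 gave 18.7, 22.8 and 22.3 normalized CPM of Lrp6, those with Chd8 siRNA 19.2, 18.3 and 21.1 and those with Tsc2 siRNA 21.4, 23.3 and 24.9. The Tsc2 siRNA libraries were higher than the control libraries at all 3 replicate numbers, although the groups overlapped. Its log2 fold change was −0.12 ± 0.15 (SE) with Chd8 siRNA and 0.13 ± 0.15 with Tsc2 siRNA. Between the knockdowns, all Chd8 siRNA libraries were below all Tsc2 siRNA libraries, with a log2 difference of −0.25 (95% confidence interval −0.58 to 0.079). Lrp6 was the only 1 of the 10 genes that did not overlap in that comparison, where 8.42% of all genes did not overlap.

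Axin1, the scaffold that limits the assembly of the destruction complex, lies at chr17:26138688-26195811. Its normalized CPM was 55.1, 41.4 and 39.3 with control siRNA, 51.2, 43.2 and 41.8 with Chd8 siRNA and 53.3, 43.9 and 56.1 with Tsc2 siRNA. Chd8 siRNA and control siRNA thus covered nearly the same range, and the log2 fold change was 0.0038 ± 0.17 (SE). With Tsc2 siRNA it was 0.17 ± 0.17, and the log2 ratios at the 3 replicate numbers were −0.047, 0.083 and 0.51, largest at number 3.

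Apc, the large scaffold that presents beta-catenin for degradation, lies at chr18:34220924-34322552. Control siRNA libraries 1 to 3 gave 64.3, 54.7 and 68.9 normalized CPM of Apc, those with Chd8 siRNA 55.0, 38.8 and 63.5 and those with Tsc2 siRNA 55.4, 44.4 and 54.7. It was below the control library of the same replicate number in all 3 Chd8 siRNA and all 3 Tsc2 siRNA libraries, and the groups overlapped, with replicate number 2 lowest in each. Chd8 siRNA gave a log2 fold change of −0.26 ± 0.19 (SE) and Tsc2 siRNA one of −0.28 ± 0.19. With the replicate block, edgeR gave −0.27 ± 0.10 and −0.28 ± 0.10, with adjusted p of 0.252 and 0.301. Apc was the only member lower at all 3 numbers with Chd8 siRNA, beside 18.3% of all genes. With Tsc2 siRNA, Apc and Ctnnb1 were lower at all 3 numbers, that is 2 of 10 members beside 16.3% of all genes.

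Gsk3b, the kinase that marks beta-catenin for degradation, lies at chr16:38089001-38246084. Its normalized CPM was 59.7, 50.9 and 46.9 with control siRNA, 69.6, 55.9 and 52.7 with Chd8 siRNA and 58.1, 48.3 and 55.9 with Tsc2 siRNA. The Chd8 siRNA libraries were above the control at each replicate number, by log2 ratios of 0.22, 0.13 and 0.17. This was a log2 fold change of 0.18 ± 0.15 (SE) without and 0.18 ± 0.10 with the block. With Tsc2 siRNA it was 0.043 ± 0.15, and only replicate number 3 was above its control.

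Ctnnb1 lies at chr9:120929216-120960507 and encodes beta-catenin, which links cadherins to the cytoskeleton and carries the Wnt signal. Control siRNA libraries 1 to 3 gave 268, 230.1 and 233 normalized CPM of Ctnnb1, those with Chd8 siRNA 269, 216 and 247 and those with Tsc2 siRNA 249.9, 219.7 and 219. It varied least of the 10 genes, with a coefficient of variation of 8.57% over the 9 libraries. The 95% confidence interval of the log2 fold change reached from −0.28 to 0.28 with Chd8 siRNA and from −0.37 to 0.20 with Tsc2 siRNA. A change of Ctnnb1 mRNA by 1.5-fold, or 0.585 on the log2 scale, thus lay outside both intervals, whereas smaller changes lay within them. The log2 ratios with Tsc2 siRNA were −0.100, −0.067 and −0.089 at the 3 replicate numbers.

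Tcf7l2, the more abundant of both TCF/LEF members, lies at chr19:55741820-55933654. Its normalized CPM was 23.7, 36.0 and 23.8 with control siRNA, 22.7, 40.0 and 32.9 with Chd8 siRNA and 22.9, 41.1 and 30.9 with Tsc2 siRNA. Replicate number 2 was highest and number 1 lowest in every group. On log2 CPM, the replicate number held 85.4% of the sum of squares of Tcf7l2 and the siRNA 6.61%. Against control siRNA, the log2 fold change was 0.20 ± 0.27 (SE) with Chd8 siRNA and 0.19 ± 0.27 with Tsc2 siRNA.

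Lef1, the other TCF/LEF factor gene, lies at chr3:131110471-131224356 and is itself a target of the pathway. Control siRNA libraries 1 to 3 gave 1.32, 2.71 and 1.42 normalized CPM of Lef1, those with Chd8 siRNA 1.41, 1.34 and 1.89 and those with Tsc2 siRNA 1.41, 0.552 and 1.38. These levels rested on 11 to 47 counts per library, and the 3 groups differed most at replicate number 2. At replicate number 2 Lef1 had 44 counts with control siRNA, 21 with Chd8 siRNA and 11 with Tsc2 siRNA. Chd8 siRNA gave a log2 fold change of −0.22 ± 0.48 (SE) and Tsc2 siRNA one of −0.69 ± 0.49. With Tsc2 siRNA this value was −0.29 without control siRNA 2 and −0.37 without Tsc2 siRNA 2, and with the block it ranged from −1.05 to −0.12 over the 6 libraries left out in turn. The 95% interval of the fold change with Tsc2 siRNA, 0.293 to 1.32, still held a 1.5-fold fall.

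Axin2, which lies at chr11:108920349-108950783, is the target gene most often read as a measure of the canonical pathway. It had 8, 7 and 38 counts with control siRNA, 17, 18 and 51 with Chd8 siRNA and 0, 12 and 8 with Tsc2 siRNA. In normalized CPM these were 0.302, 0.431 and 1.63 with control siRNA, 0.569, 1.15 and 2.10 with Chd8 siRNA and 0, 0.602 and 0.234 with Tsc2 siRNA. The Chd8 siRNA libraries were above the control library and above the Tsc2 siRNA library at all 3 replicate numbers, while the groups overlapped. Between the knockdowns, Axin2 was the 1 member higher at all 3 numbers with Chd8 siRNA, beside 16.2% of all genes, and Axin1 and Lrp6 were lower at all 3, beside 15.9%. The log2 fold change of Axin2 was 0.68 ± 1.02 (SE) with Chd8 siRNA and −1.52 ± 1.08 with Tsc2 siRNA. Single libraries moved these values. With Chd8 siRNA the log2 fold change of Axin2 was 0.10 without Chd8 siRNA 3 and 1.79 without control siRNA 3, the lowest and highest of 6 such fits. With Tsc2 siRNA it was −2.60 without Tsc2 siRNA 2 and −0.40 without control siRNA 3. Between Chd8 siRNA and Tsc2 siRNA it was 2.20 ± 1.09 without the block and 2.40 ± 0.87 with it, and the adjusted p with the block in edgeR's test was 0.307. Without the block, this difference ranged from 1.62 to 3.28 when single libraries were left out, with the highest value without Tsc2 siRNA 2. In the fit without the block, the 95% confidence interval of the fold change of Axin2 against control siRNA was 0.330 to 7.77 with Chd8 siRNA and 0.0653 to 1.86 with Tsc2 siRNA. Each of these intervals held both a rise and a fall of 1.5-fold. The libraries of replicate number 3 held the most Axin2 with control siRNA and Chd8 siRNA, and also the most mRNA of astrocyte and fibroblast markers. The 6 fibroblast markers summed to 66.8 normalized CPM in control siRNA library 3, 27.5 in Chd8 siRNA library 3 and 48.7 in Tsc2 siRNA library 3, beside 8.67 to 30.0 in the other libraries. In Tsc2 siRNA library 3 the astrocyte markers summed to 57.4 normalized CPM, with Axin2 at 0.234. Sox10 and Olig1 were also highest at number 3 in each group. There, control, Chd8 and Tsc2 siRNA gave 1.59, 2.10 and 0.527 normalized CPM of Sox10 and 2.23, 2.43 and 1.84 of Olig1. All 8 markers of the oligodendrocyte lineage, however, summed to 13.1 to 20.9 at number 3 and 26.8 to 30.9 in the other libraries. The part of any of these cells in the Axin2 level was not tested.

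Ccnd1 lies at chr7:144929931-144939925 on the minus strand and encodes cyclin D1, which drives entry into S phase. Its normalized CPM was 80.7, 140.1 and 108 with control siRNA, 96.0, 165 and 164 with Chd8 siRNA and 98.6, 117 and 81.4 with Tsc2 siRNA. All 3 Chd8 siRNA libraries were above the control of the same replicate number, by log2 ratios of 0.25, 0.23 and 0.60, although the groups overlapped. With Tsc2 siRNA, replicate number 1 was above and numbers 2 and 3 were below the control. Chd8 siRNA gave a log2 fold change of 0.37 ± 0.26 (SE) without the block and 0.37 ± 0.14 with it, and edgeR's adjusted p with the block was 0.251. Between Chd8 siRNA and Tsc2 siRNA the log2 difference was 0.51 ± 0.26 without and 0.48 ± 0.14 with the block, with an adjusted p of 0.174 in edgeR's test with the block. When the library Tsc2 siRNA 1 was left out, this difference was 0.72 with an adjusted p of 0.00530 in edgeR's test with the block, the only fit in which a member was called. In the other fits with the block that left out a library, this log2 difference was 0.28 to 0.65, lowest without Tsc2 siRNA 3 and nearly as low, at 0.29, without Chd8 siRNA 3, and its adjusted p in edgeR's test was 0.0705 to 0.767. The markers of cycling cells summed to 185 to 197 normalized CPM at replicate number 1, 207 to 222 at number 2 and 232 to 263 at number 3. These sums were led by Pcna at 140 to 188, with Mki67 at 30.1 to 84.4 and Cdk1 at 0.985 to 3.54. The part of cycling cells in the Ccnd1 level was not tested.

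Higher levels at all 3 replicate numbers were found for Axin2, Gsk3b and Ccnd1 with Chd8 siRNA, that is 3 of 10 members beside 17.7% of all genes. With Tsc2 siRNA, Lrp6 was the 1 such member, beside 15.6% of all genes. These shares of so few genes were not tested.

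Myc, which lies at chr15:61985391-61990374 and encodes a transcription factor that promotes growth. Control siRNA libraries 1 to 3 gave 11.2, 19.3 and 17.6 normalized CPM of Myc, those with Chd8 siRNA 13.3, 18.6 and 18.8 and those with Tsc2 siRNA 15.3, 17.5 and 14.8. Replicate number 1 was lowest with control siRNA and Chd8 siRNA. On log2 CPM, the siRNA held 2.61% of the sum of squares of Myc and the replicate number 68.9%. The log2 fold change of Myc was 0.074 ± 0.23 (SE) with Chd8 siRNA and −0.011 ± 0.23 with Tsc2 siRNA.

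**Figure D2:**
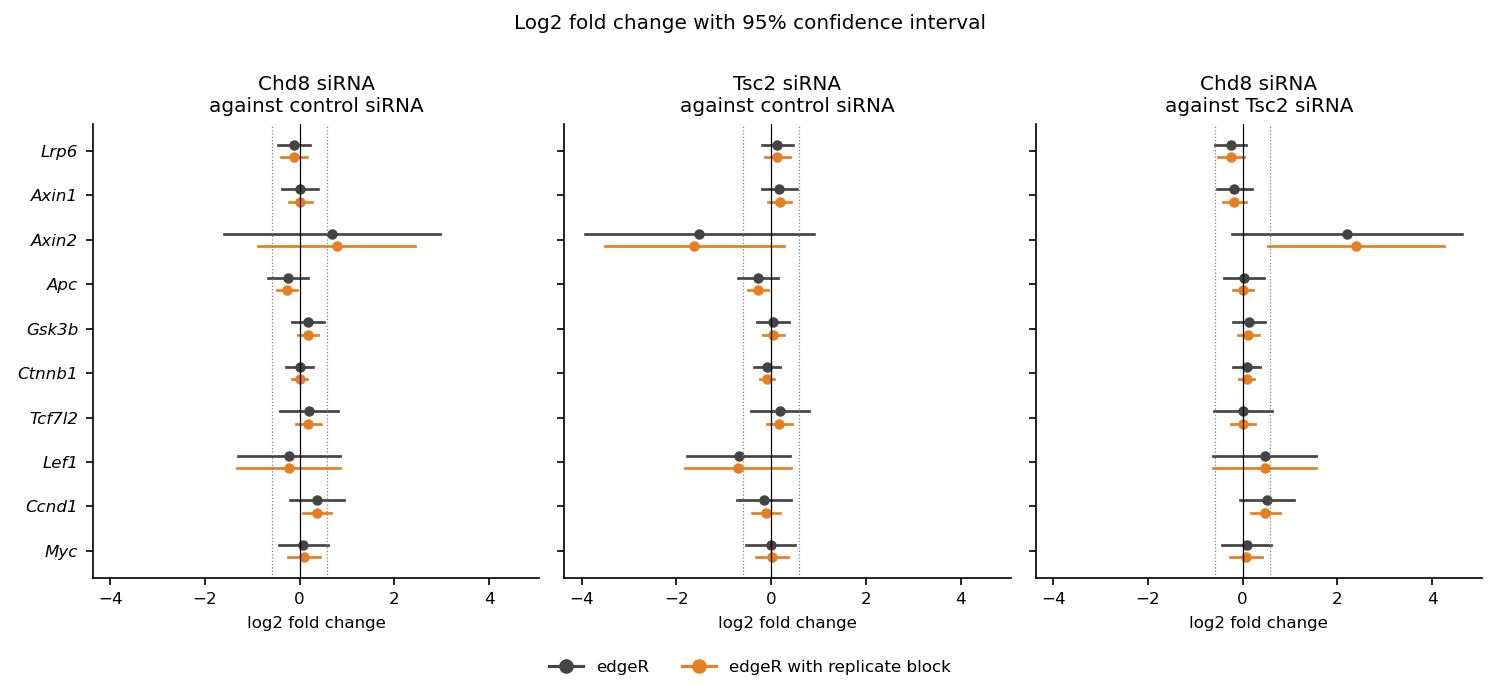
Log2 fold change (x axis) of the 10 genes (y axis) in each comparison, without (grey) and with (orange) the replicate block. The 95% confidence intervals were computed from the F statistic of edgeR's quasi-likelihood test. Dotted lines mark a fold change of 1.5. The intervals of Axin2 and Lef1 are the widest, and those of Ctnnb1 are the narrowest. With the block, the intervals of Apc in both comparisons with control, of Ccnd1 with Chd8 siRNA and between the knockdowns, and of Axin2 between the knockdowns, exclude 0 before adjustment for all genes tested, that is 2, 1 and 2 members beside 12.8%, 10.7% and 10.7% of all genes.

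As a group, the 10 genes had a median log2 fold change of 0.04 with Chd8 siRNA, beside −0.02 over all genes tested, and 7 of 10 values were above 0, beside 7771 of all 16272. With Tsc2 siRNA the median was −0.05, beside −0.02 over all genes, and 4 of 10 values were above 0, beside 7742 of all 16272. Fold changes were within 1.5-fold for 9 of 10 members with Chd8 siRNA, where Axin2 was the exception, and for 8 of 10 with Tsc2 siRNA, where Axin2 and Lef1 were the exceptions. Over all tested genes, 13334 of 16272 were within 1.5-fold with Chd8 siRNA and 13278 with Tsc2 siRNA.

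The transcripts behind these sums were not all coding. For Myc, 100% of the normalized CPM came from transcripts annotated as protein coding, for Axin1 96.8%, for Ccnd1 96.5%, for Gsk3b 95.4%, for Lrp6 93.6% and for Ctnnb1 93.4%. Apc with 84.9%, Axin2 with 83.9% and Tcf7l2 with 77.8% were lower. For Axin2 this share differed between libraries, since its coding transcripts held 2, 4 and 38 counts with control siRNA, 3, 18 and 45 with Chd8 siRNA and 0, 12 and 8 with Tsc2 siRNA. At replicate number 1, transcripts annotated as non-coding thus held 6 of the 8 Axin2 counts with control siRNA and 14 of the 17 with Chd8 siRNA. Lef1 stood apart with 21.7% coding. Its other counts, 78.3% of its CPM over the 9 libraries, were assigned to Lef1-205, a transcript of 3656 bases with 4 exons that is annotated as a retained intron. The coding transcripts of Lef1 held 5, 12 and 0 counts with control siRNA, 6, 7 and 5 with Chd8 siRNA and 16, 9 and 0 with Tsc2 siRNA. Lef1-205 held 30, 32 and 33 counts with control siRNA, 36, 14 and 41 with Chd8 siRNA and 17, 2 and 47 with Tsc2 siRNA, that is most of the Lef1 counts in each library but Tsc2 siRNA 2. At replicate number 2, the coding counts of Lef1 were 12 with control siRNA and 9 with Tsc2 siRNA, whereas those of Lef1-205 were 32 and 2. For Apc, the long isoform Apc-202 held 59.9% of the CPM, and Apc-203, which shares most of its sequence, had counts in 3 libraries and 0 in the other 6. Such splits between near-identical transcripts are uncertain, while their sum is not touched by them. Of the 87 listed transcripts, 50 passed the filter on low counts, and edgeR's quasi-likelihood test among 41634 transcripts called 0 of all of these at an FDR of 0.05 in each comparison, and so 0 of the 50. At an unadjusted p under 0.05, this test had 1 of 50 member transcripts with Chd8 siRNA against control siRNA, beside 1384 of all 41634, 1 with Tsc2 siRNA against control siRNA, beside 1177, and 2 between the knockdowns, beside 1357.

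**Figure D3:**
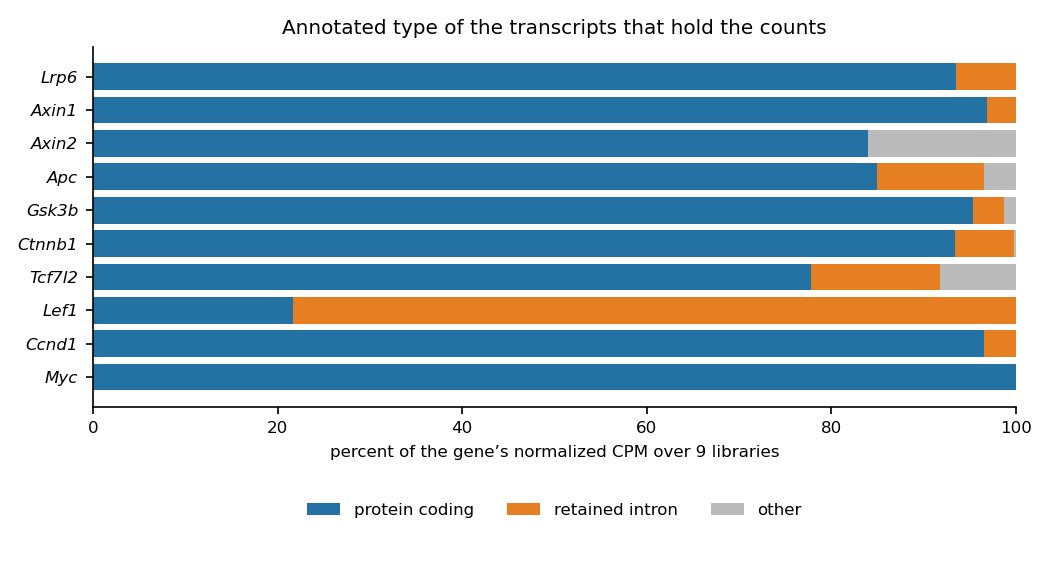
Share of each gene's normalized CPM, averaged over the 9 libraries (x axis, percent), that was assigned to transcripts annotated as protein coding (blue), retained intron (orange) or other (grey). Coding transcripts hold 77.8% or more of the CPM of 9 genes and 21.7% of that of Lef1.

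Some members overlap other genes. Ccnd1 overlaps LTO1 on the opposite strand, which was at 13.4 normalized CPM on average beside 117 for Ccnd1, and Tcf7l2 holds the intronic Ppnr on its own strand, at 4.04 beside 30.4. Ctnnb1 overlaps Ulk4 on the opposite strand, at 0.487 beside 239, and Lef1 overlaps the antisense gene Gm43352, at 0.109 beside 1.49. The antisense gene that overlaps Axin2 was at 0 in all libraries. The labels name a stranded kit, and the strand setting of the quantification is not given in the sources used here, so that reads of such pairs may not be told apart.

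The wider pathway was described by 119 genes in 9 roles, which include the 10 members and Chd8. All 119 were in the table, 112 had at least 1 count, and 76 were tested, of which 65 were neither members nor Chd8. Without the replicate block, edgeR called 0 of the 76 in each comparison. At an unadjusted p under 0.05 there were 2 with Chd8 siRNA, the target Chd8 and Ppp2ca, beside 3.81% of all genes, and 1 with Tsc2 siRNA, Fosl1, beside 2.58%. With the block, 14 and 10 of the 76 had such a p, beside 12.8% and 10.7% of all genes. With the block, 1 of 76 was called with Chd8 siRNA, which was Chd8 itself, lower, beside 0.529% of all genes, and 1 of 76 with Tsc2 siRNA, which was Fosl1, lower, beside 0.387%. The median log2 fold change of the 65 other genes was −0.02 with Chd8 siRNA and −0.02 with Tsc2 siRNA, as over all genes tested.

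Ligands were scarce in these cultures. Of 24 ligand and agonist genes, 5 were tested, 5 had 0 counts in every library, and the most abundant, Wnt5a, which encodes a ligand of mostly non-canonical signalling, was at 0.0754 to 3.37 normalized CPM. Its highest level in each group was at replicate number 3. The secretion factor Wls was at 17.6 to 28.3 normalized CPM. Among receptors, 13 of 19 were tested, led by the Frizzled gene Fzd5 at 32.2 to 78.3 normalized CPM. Dvl3 led the transducers at 18.3 to 33.4 normalized CPM, and Ep300, a coactivator, led the nuclear partners at 205 to 352. Cd44, an adhesion receptor, led the target genes at 538 to 1149 normalized CPM, and Ctnna1, which encodes alpha-catenin, led the junction partners at 162 to 197. With Chd8 siRNA, the median log2 fold change was 0.36 for ligands (5 tested), −0.18 for ligand secretion (1 tested), −0.041 for receptors (13 tested), 0.42 for inhibitors outside the cell and at the membrane (6 tested), −0.017 for transducers (3 tested), 0.13 for the destruction complex (16 tested), −0.051 for beta-catenin and nuclear partners (19 tested), 0.011 for target genes (14 tested) and 0.026 for junction partners (4 tested), beside −0.018 over all genes. With Tsc2 siRNA it was −0.11 for ligands, −0.020 for ligand secretion, −0.078 for receptors, 0.18 for inhibitors outside the cell and at the membrane, 0.064 for transducers, 0.059 for the destruction complex, −0.019 for beta-catenin and nuclear partners, −0.12 for target genes and −0.040 for junction partners, beside −0.019. These medians over few genes were not tested.

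**Figure D4:**
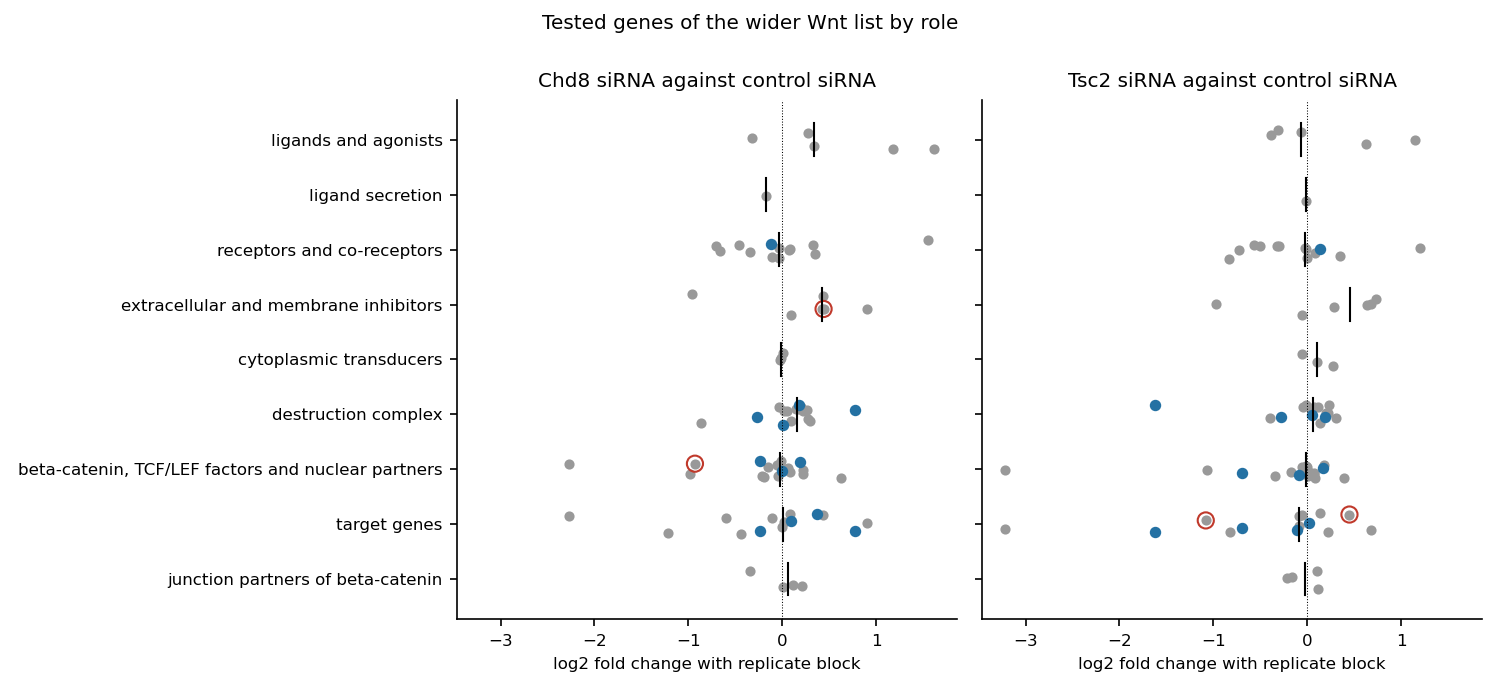
Log2 fold change with the replicate block (x axis) of the 76 tested genes of the wider Wnt list by role (y axis) in both comparisons with control siRNA; a gene with 2 roles is drawn in both, blue points are the 10 members, black bars are medians and red rings mark an adjusted p under 0.05. The ringed genes are Kremen1 and Chd8 with Chd8 siRNA and Fosl1 and Ccnd2 with Tsc2 siRNA, and no member is ringed.

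Fosl1, a target gene that encodes the AP-1 subunit Fra-1, was at 18.9, 10.1 and 31.1 normalized CPM with control siRNA and at 7.43, 5.62 and 15.6 with Tsc2 siRNA. It was lower at all 3 replicate numbers while the groups overlapped. Its log2 fold change was −1.06 ± 0.47 (SE) without the block and −1.08 ± 0.23 with it, where edgeR's adjusted p was 0.0416. When any one library of the comparison other than control siRNA 2 was left out, the adjusted p with the block in edgeR's test was 0.0825 to 0.355, with log2 fold changes of −1.22 to −0.86. Ccnd2, which encodes cyclin D2 and was named after its values were seen, was at 59.5, 189 and 188 normalized CPM with control siRNA and at 92.9, 244 and 241 with Tsc2 siRNA. Its log2 fold change with the block was 0.45 ± 0.09 with an adjusted p of 0.0409 in edgeR's test, below the fold threshold. In fits without the block that left out single libraries, the log2 fold change of Ccnd2 ranged from 0.035 to 0.74.

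With Chd8 siRNA, Kremen1, a receptor of the Dkk inhibitors, was at 122, 175 and 109 normalized CPM beside 92.3, 124 and 81.0 with control siRNA. The log2 ratios were 0.40, 0.50 and 0.42 at the 3 replicate numbers. With the block the log2 fold change was 0.44 ± 0.08 (SE) and edgeR's adjusted p was 0.0215, again below the fold threshold, and without the block it was 0.45 ± 0.22. When single libraries were left out, the adjusted p of Kremen1 in edgeR's test with the block was 0.0521 to 0.203 at log2 fold changes of 0.38 to 0.48, and that of Ccnd2 with Tsc2 siRNA was 0.0545 to 0.236 at 0.33 to 0.53. For Chd8 itself the log2 fold change was −0.86 ± 0.28 without and −0.93 ± 0.14 with the block, where edgeR's adjusted p was 0.00783. The call of Chd8 with the block was lost without control siRNA 2, control siRNA 3 or Chd8 siRNA 2, where edgeR's adjusted p was 0.0574, 0.0791 and 0.0809 at log2 fold changes of −0.85, −0.88 and −0.86.

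The other genes with the lowest unadjusted p with Chd8 siRNA were Ppp2ca, Ctnnd1, Csnk1e and Fzd8. Ppp2ca, the catalytic subunit of protein phosphatase 2A, was 225 to 248 normalized CPM with Chd8 siRNA and 182 to 213 with control siRNA, and its log2 fold change was 0.26 ± 0.11 (SE). Ctnnd1, which encodes p120-catenin, was 71.8 to 85.7 normalized CPM with Chd8 siRNA and 95.2 to 112 with control siRNA, with a log2 fold change of −0.33 ± 0.16. Neither gene overlapped between these groups, beside 9.05% of all genes. Both were picked for a low p in this comparison, which favours such a separation. The kinase gene Csnk1e had a log2 fold change of 0.28 ± 0.17 and the receptor gene Fzd8 one of −0.72 ± 0.46, and both overlapped between the groups. With Tsc2 siRNA, the corresponding genes were Apcdd1, Gsk3a, Csnk1d, Dvl1 and Tle2. Apcdd1, an inhibitor at the membrane, was 3.92 to 5.01 normalized CPM with Tsc2 siRNA and 2.16 to 3.92 with control siRNA, and its log2 fold change was 0.66 ± 0.34. Gsk3a, the paralog of Gsk3b, was 29.2 to 32.8 normalized CPM with Tsc2 siRNA and 20.7 to 27.7 with control siRNA, with a log2 fold change of 0.29 ± 0.16. Its groups did not overlap, beside 8.13% of all genes, and it too was picked for a low p. The log2 fold changes of the kinase gene Csnk1d, the transducer gene Dvl1 and the corepressor gene Tle2 were 0.22 ± 0.13, 0.28 ± 0.17 and −1.11 ± 0.68. The value of Tle2 was −0.56 without control siRNA 2, and with the block it ranged from −1.75 to −0.20 over the 6 libraries left out in turn. The adjusted p of these 9 genes in edgeR's test was 1.00 without the block and 0.119 to 0.700 with it.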

How the data were processed

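Reads were quantified by the authors with salmon 0.14.1 on mm10 and imported with tximport, and estimated counts per transcript were deposited, not normalized and not pooled. The annotation release is not given in the sources used here. Estimated counts were rounded and summed to genes with GENCODE mouse release 21, which matched 139852 of 140948 transcripts. The unmatched transcripts held 0.270% of all counts and were left out of the tests of genes. The table has 1 column per library, and groups came from the treatment in the labels.

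Genes were tested in R 4.3.3 with edgeR 4.0.16 (filterByExpr, TMM, quasi-likelihood test, Benjamini-Hochberg adjustment), all 9 libraries in 1 fit without covariates. The tests were also run on simulated counts, whose outcome is not given here. An exact permutation test of 3 against 3 libraries cannot go below a two-sided p of 0.1 and is not given. Log2 ratios at single replicate numbers and sums of squares used log2(CPM + 0.5). Levels per length (TPM) used annotated transcript lengths. Alternatives used DESeq2 1.42.0 and limma 3.58.1, among others given at the end.

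Replicate numbers come from the titles in the labels. Deviations of genes from their group means had correlations of 0.244 to 0.521 in all 9 pairs of libraries with the same number and −0.381 to 0.0356 in the other 18 pairs, so the numbers were taken to pair the libraries. The members and the lists of pathway genes and markers were chosen with earlier results of these data known. Genes named beside the members are Chd8 and Tsc2, the 6 Wnt genes other than members with the lowest p in each comparison with control (Chd8 is 1 of the 6 with Chd8 siRNA), and the most abundant gene of each role. Ccnd2 was added after its values were seen. Amino acid sequences were not used here. Columns of the authors' own comparisons were not present in the table analysed.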

Additional observations from a re-analysis of the deposited data

How the results depend on the processing

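No member was called under another normalization (RLE), another filter on low counts, DESeq2's Wald test, limma-voom, the 6 libraries of a comparison, no fold threshold, protein-coding transcripts or the most abundant transcript alone. With the replicate block 86, 63 and 36 genes were called for Chd8 siRNA against control siRNA, Tsc2 siRNA against control siRNA and Chd8 siRNA against Tsc2 siRNA, in place of 0, and 1 gene of the wider Wnt list in each. Apart from Chd8 and Fosl1, the block changed no call of a named gene. DESeq2 called 9, 5 and 5 genes, and no filter on low counts gave 2 genes with Chd8 siRNA and 1 with Tsc2 siRNA against control siRNA.

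With single libraries left out, 0 genes were called without the block in every fit. With the block, 20 to 81 genes were called with Chd8 siRNA against control siRNA (fewest without control siRNA 3), 7 to 131 with Tsc2 siRNA against control siRNA (fewest without control siRNA 3, most without Tsc2 siRNA 1) and 4 to 129 between the knockdowns (fewest without Chd8 siRNA 3, most without Tsc2 siRNA 1). These counts with the block moved by over 1.5 times whichever library was left out, except for control siRNA 1 in both comparisons with control and Chd8 siRNA 1 in that with Chd8 siRNA. With or without the block, called genes of the wider list ranged from 0 to 1, 0 to 1 and 0 to 3, and members called between the knockdowns from 0 to 1. A group with 2 libraries was then assumed to vary like the others.

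Values near 0 changed sign. With Chd8 siRNA, the stricter filter gave log2 fold changes of −0.00192 for Ctnnb1 and −0.000608 for Axin1, and coding transcripts −0.022 for Axin1. With Tsc2 siRNA, the most abundant transcript alone gave −0.12 for Axin1 and −0.0078 for Gsk3b, and Myc was 0.010 without a filter, 0.044 in limma-voom and 0.022 with the block. Between the knockdowns, the most abundant transcript alone gave 0.22 for Axin1 and −0.46 for Apc, coding transcripts −0.049 for Apc, and Tcf7l2 was −0.0047 without a filter and −0.013 in limma-voom. Without single libraries, values with Chd8 siRNA ranged from −0.076 to 0.086 for Ctnnb1, −0.093 to 0.17 for Axin1, −0.55 to 0.42 for Lef1 and −0.13 to 0.23 for Myc. With Tsc2 siRNA they ranged from −0.056 to 0.15 for Gsk3b, −0.041 to 0.42 for Tcf7l2, −0.36 to 0.085 for Ccnd1 and −0.21 to 0.16 for Myc, and between the knockdowns from −0.14 to 0.20 for Apc, −0.19 to 0.24 for Tcf7l2 and −0.068 to 0.25 for Myc. The causes were not tested. Lef1 could not be fitted with coding transcripts alone, nor Tle2 under the stricter filter, since both were filtered out. Axin2 and Lef1 had at most 51 counts in a library and the widest intervals, and the part of depth in these was not tested.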
